A study of Homo sapiens with 4 samples.

Results

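ZNF217 peaks that lay in introns, away from promoters, and were called in both leukemia lines numbered 2765 of the 36356 MV4-11 peaks on chromosomes 1 to 22 and X. A peak was taken as one of these shared intronic distal peaks when it met 3 conditions on position. It overlapped a U937 peak by at least 1 bp. Its midpoint was more than 1 kb from every transcription start site (TSS) of a protein-coding or long noncoding RNA transcript in GENCODE 44. The midpoint also lay in the body of a protein-coding gene and outside the exons of such genes. The peaks were thus selected on their positions in both peak lists, and their number, overlap, width and lower limit of distance are descriptions. Sharing with U937 narrowed the MV4-11 list to 14682 peaks, the TSS limit to 5716 and the intron condition to 2765.

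ZNF217 was mapped by CUT&Tag, in which an antibody tethers a transposase that cuts and tags the DNA around its target. The 2 libraries came from untreated MV4-11 cells, an acute myeloid leukemia (AML) line with a KMT2A fusion, and untreated U937 cells, a monocytic line with a PICALM fusion. The series also labelled an IgG library for each line, and these 2 samples are not analysed here. Each line had 1 ZNF217 library and stands for 1 established culture, so no difference could be set against replicates, and all intervals below are 95% intervals of counting error alone. Neither peak heights nor read counts came with the hg38 coordinates, so the depth is unknown, and the IgG background at these sites was not measured here.

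ZNF217 is a zinc finger protein that binds DNA and works with corepressors of the CtBP and LSD1-CoREST type. Introns carry many enhancers, stretches of DNA at which several transcription factors bind together and act on a promoter at a distance. In myeloid cells such elements are commonly built around PU.1, C/EBP, RUNX and AP-1 sites. PU.1 is an ETS factor encoded by SPI1 that drives the monocyte and granulocyte lineages, C/EBP factors are leucine zipper proteins of the same lineages, RUNX factors are blood regulators often altered in AML, and AP-1 is the FOS and JUN dimer induced by growth and stress signals.

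Sequence at the midpoints of shared intronic distal peaks is shown for 5 motifs. Each was found in more of these peaks than of intron windows at like GC content. So were others that are not shown, among them KLF/SP, CTCF, NF-kB and E-box motifs. For each motif the peak shown is the one in a named gene whose match lay nearest the midpoint. The stretches are hg38 reference sequence, 5′ to 3′ on the strand of the match, and capitals mark the match.
NR4A1, chr12:52045908-52046008, plus strand: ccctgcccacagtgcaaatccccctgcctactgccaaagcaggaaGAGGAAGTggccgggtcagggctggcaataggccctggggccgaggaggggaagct
SH3RF3, chr2:109214188-109214288, minus strand: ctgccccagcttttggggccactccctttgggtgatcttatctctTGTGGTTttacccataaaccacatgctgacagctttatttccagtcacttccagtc
SPI1, chr11:47356041-47356141, minus strand: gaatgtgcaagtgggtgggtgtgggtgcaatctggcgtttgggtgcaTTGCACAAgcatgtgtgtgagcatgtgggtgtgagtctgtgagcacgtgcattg
LRRC75A, chr17:16450747-16450847, plus strand: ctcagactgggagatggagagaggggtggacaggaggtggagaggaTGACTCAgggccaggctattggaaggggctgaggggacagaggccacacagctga
MGLL, chr3:127761486-127761586, plus strand: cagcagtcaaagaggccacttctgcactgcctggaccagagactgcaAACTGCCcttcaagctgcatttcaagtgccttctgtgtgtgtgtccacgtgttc
The NR4A1 stretch holds the PU.1-type ETS motif GAGGAAGT, the letters preferred by PU.1 over most other ETS factors, and NR4A1 encodes an orphan nuclear receptor induced early after stimulation. The SH3RF3 stretch holds the RUNX motif TGTGGTT. The SPI1 stretch holds a C/EBP match (TTGCNNAA, N being any base), in the gene that encodes PU.1. The LRRC75A stretch holds the AP-1 motif (TGANTCA), and the MGLL stretch the MYB motif (AACNGCC), named for a factor of blood progenitors. MGLL encodes monoacylglycerol lipase.

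Sharing was about as frequent in introns as between genes. Of 11045 MV4-11 intronic distal peaks 25.03% (24.2 to 25.9) overlapped a U937 peak, against 25.3% (24.4 to 26.2) of 9474 intergenic distal peaks. Counted from U937, 50.3% (48.9 to 51.6) of 5573 intronic distal peaks overlapped an MV4-11 peak. The 2765 peaks met 2704 U937 peaks. Of the 2765, 98 met 2 or more U937 peaks, and 122 met a U937 peak that another of them also met. Where a single U937 peak is given, it is the one with the longest overlap. For 2551 (92.3%) this U937 peak was itself intronic and distal by its own midpoint. In 52.6% (50.7 to 54.4) either peak lay within the other, and in 35.2% (33.4 to 37.0) the midpoints were within 100 bp. The median distance between midpoints was 158 bp (150 to 168), and U937 peaks together covered a median of 73.1% (71.4 to 74.6) of the MV4-11 peak.

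Widths were much like those of shared peaks outside genes. The median width was 764 bp (745 to 789) in MV4-11 for the shared intronic distal peaks and 768 bp (747 to 792) for the 2398 shared intergenic distal peaks. The 8280 intronic distal peaks of MV4-11 without a U937 partner had a median of 467 bp (462 to 473), and the 2772 of U937 without an MV4-11 partner 453.5 bp (446 to 462). Wide peaks overlap more easily, so this width difference is not independent of the selection. With MV4-11 intronic distal peaks divided into 5 equal classes by width, 9.78% of the narrowest class (283 to 356 bp) were shared, and 53.4% of the widest (864 to 9537 bp). Within pairs the widths varied widely. The MV4-11 peak had a median of 764 bp, against 723 bp (705 to 743) for its U937 peak, and the median ratio of MV4-11 over U937 was 1.08 (1.05 to 1.11). From the 10th to the 90th percentile this ratio ran from 0.439 to 2.42.

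**Figure D1:**
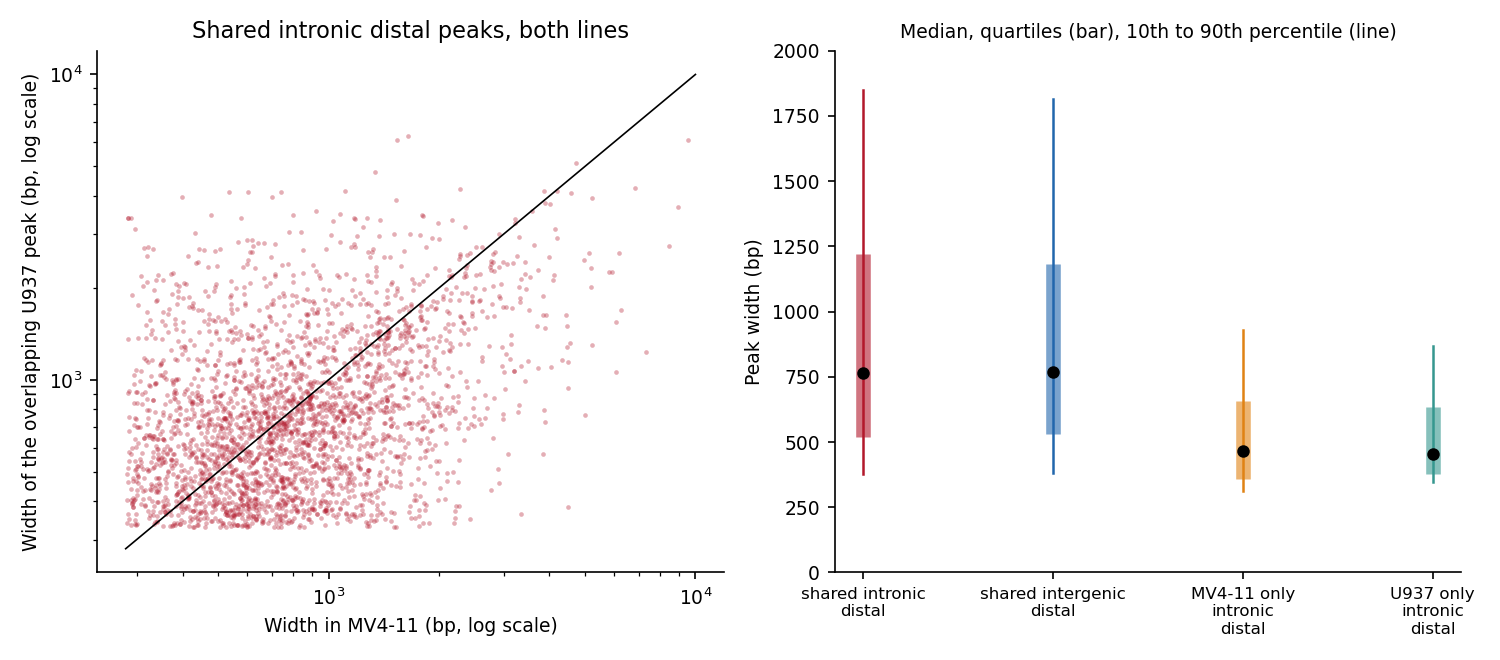
Widths of shared intronic distal peaks. The left panel plots each of the 2765 peaks by its width in MV4-11 and the width of the U937 peak it overlaps most, in bp on log axes with a line of equality, and 55.8% of points are wider in MV4-11. The right panel gives the median (point), quartiles (bar) and 10th to 90th percentiles (line) of width in bp for 4 sets, in which both shared sets have medians near 764 bp and both unshared sets have medians of 467 bp or less.

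Only 82 shared intronic distal peaks reached 3 kb. Most of the 10 widest met several U937 peaks, so the bases that U937 peaks covered are given for them. The widest was the 9537 bp peak in the first intron of ZBTB7B, a zinc finger repressor that commits T cells to the helper lineage, of which U937 peaks covered 7898 bp. A second gene of this family, ZBTB7A, whose product represses fetal globin genes, held a 5937 bp peak (chromosome 19, 4057812 to 4063749) of which U937 peaks covered 3989 bp. AHRR, whose product represses signalling by the aryl hydrocarbon receptor, held a peak of 8965 bp with 6563 bp covered. The first intron of RARA, the retinoic acid receptor gene rearranged in promyelocytic leukemia, held 8470 bp in MV4-11 (chromosome 17, 40316473 to 40324943), with 4802 bp covered by U937 peaks. MEF2D, a MADS box factor of the proposed AML circuit, held 6190 bp in its first intron in MV4-11 (chromosome 1, 156488796 to 156494986), and a single U937 peak of 2603 bp lay within it. BBC3, which encodes the pro-apoptotic protein PUMA, held 6093 bp, with 2521 bp covered. The other 4 of the 10 widest peaks lay in KLF16, LONP1, RAB26 and LRRC75A, at 7330, 6864, 6255 and 6079 bp in MV4-11, of which U937 peaks covered 2404, 4900, 2492 and 3117 bp.

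The shared intronic distal peaks thinned out with distance from promoters. The median distance from midpoint to the nearest TSS was 7262 bp (6879 to 7663). It was 9795.5 bp (9312 to 10346) for shared intergenic distal peaks, 8436 bp (8164 to 8744) for MV4-11 only intronic distal peaks and 11015.5 bp (10271 to 11725) for U937 only intronic distal peaks. In 70.0% (68.3 to 71.7) of the peaks the nearest TSS belonged to the host gene. Introns open to the rule, meaning gene body outside exons and more than 1 kb from a TSS, came to 1142.4 Mb and held 2.42 peaks per Mb. Intergenic sequence more than 1 kb from a TSS held 1.53 shared peaks per Mb. These 2 densities were not matched on distance beyond that limit.

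Per Mb of such intron sequence there were 8.77 shared peaks at 1 to 2 kb from a TSS, 5.31 at 2 to 5 kb, 3.76 at 5 to 10 kb, 2.50 at 10 to 20 kb, 1.49 at 20 to 50 kb and 0.787 at 50 to 100 kb. The density at 1 to 2 kb was 11.1 times (9.17 to 13.6) that at 50 to 100 kb. The same ratio was 8.75 (7.82 to 9.80) for MV4-11 only peaks and 5.07 (4.204 to 6.12) for U937 only peaks. Beyond 100 kb only 16 shared peaks remained, or 0.118 per Mb, 0.150 times (0.0837 to 0.253) the density at 50 to 100 kb. For MV4-11 only peaks this last ratio was 0.537 (0.450 to 0.640), and for U937 only peaks 0.428 (0.318 to 0.570), so the intervals of the shared peaks lay below both. The drop beyond 100 kb rests on those 16 peaks.

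The 3 shared intronic distal peaks nearest the 1 kb limit lay less than 10 bp past it, in NPRL3, ELOVL3 and KCNQ5, with widths of 296, 677 and 389 bp. The 3 nearest shared peaks that the limit left out lay closer to a TSS, at 994 bp in OSBPL5, 992 bp in PLD4 and 990 bp in CTIF. At the other end, the 5 most distant peaks lay 135002 to 204054 bp from any TSS. The farthest was a 721 bp peak in RUNX1 (chromosome 21, 35528527 to 35529248), the core binding factor subunit gene that is mutated or fused in AML. SH3RF3, a scaffold gene of the JNK pathway, held 2 of these 5, at 203359 and 135002 bp, and GALNT17 and ANTXR1 held the others.

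First introns carried more than their share of the sequence. Of the 2765 peaks 34.3% (32.6 to 36.1) lay in the first intron of a canonical transcript, against 27.8% of MV4-11 only and 29.5% of U937 only intronic distal peaks. The difference was 6.51 points (4.51 to 8.54) from MV4-11 only and 4.78 points (2.32 to 7.22) from U937 only. First introns made up 21.1% of the intron sequence open to the rule, and held 3.93 shared peaks per Mb against 1.92 in later introns, a ratio of 2.05 (1.89 to 2.23). Since first introns start at a TSS, the ratio was taken again within classes of distance. It was 2.23 (1.80 to 2.78) at 1 to 2 kb, 1.40 (1.18 to 1.66) at 2 to 5 kb, 1.63 (1.36 to 1.95) at 5 to 10 kb and 1.42 (1.17 to 1.74) at 10 to 20 kb. At 20 to 50 kb it was 1.09 (0.851 to 1.38) and no difference was detectable there. MV4-11 only peaks had a ratio of 1.44 (1.26 to 1.64) at 1 to 2 kb and 0.950 (0.845 to 1.07) at 5 to 10 kb, with intervals below those of the shared peaks. At 2 to 5 kb their ratio was 1.15 (1.04 to 1.27) and at 10 to 20 kb 1.11 (0.988 to 1.25), with intervals that overlap those of the shared peaks. U937 only peaks had ratios of 1.66 (1.27 to 2.17) at 1 to 2 kb, 1.22 (0.999 to 1.49) at 2 to 5 kb, 1.43 (1.19 to 1.71) at 5 to 10 kb and 1.06 (0.874 to 1.28) at 10 to 20 kb, all overlapping.

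**Figure D2:**
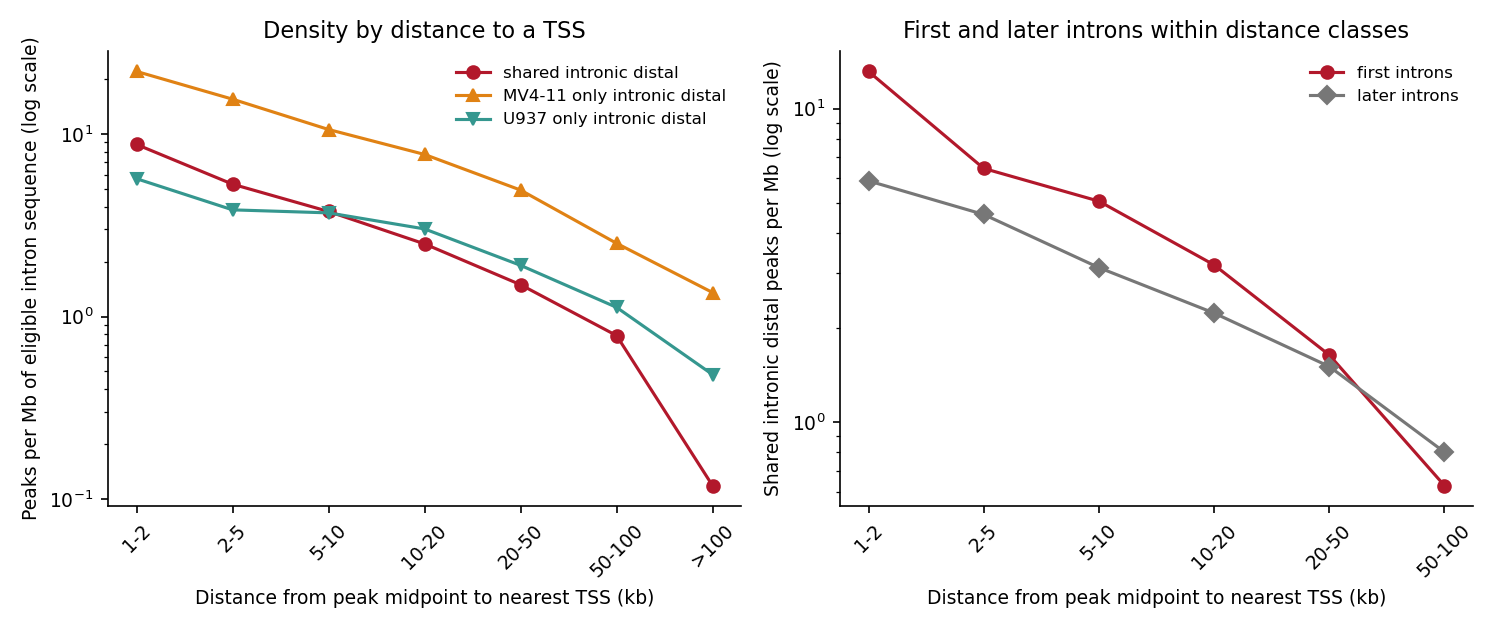
Density of intronic distal peaks by distance from the midpoint to the nearest TSS, in peaks per Mb of intron sequence open to the rule, on a log axis over classes of distance in kb. The left panel compares shared, MV4-11 only and U937 only peaks, of which the shared peaks drop to 0.118 per Mb beyond 100 kb. The right panel splits the shared peaks by first and later introns, and the lines meet at 20 to 50 kb.

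Motifs were read in the central 300 bp of each peak, on both strands, and set against 3711698 windows of 300 bp that tile the same intron sequence. Those windows averaged 41.0% GC, and the peaks had a median of 55.7% (55.3 to 56.0), so each share is also given for windows weighted to the GC content of the peaks. A PU.1-type ETS motif was present in 183 of the 2765 peaks, or 6.62% (5.75 to 7.61), against 1.496% of all windows and 1.65% at like GC. C/EBP was present in 14.7% (13.4 to 16.1), against 15.4% of all windows and 7.41% at like GC. AP-1 was present in 15.1% (13.8 to 16.5), against 9.12% of all windows and 6.75% at like GC. RUNX was present in 9.08% (8.06 to 10.2), against 5.70% of all windows and 4.22% at like GC. A motif of at least 1 of PU.1-type ETS, RUNX, C/EBP, AP-1 or IRF was found in 1176 peaks (42.5%, 40.7 to 44.4), and 387 (14.0%) held none of the 19 motifs searched. These combined shares were not counted in the windows, so neither can be read as above or below background.

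The ZNF217 motif itself was found in 455 peaks, or 16.5% (15.1 to 17.9). This motif was searched as CAGAA preceded by A or T and then A or G, and followed by any base but A. It was present in 18.1% of all windows and in 12.7% at like GC, so its position against the windows turned with the weighting, as did that of C/EBP. MEF2 was searched as CTANNNNTA, a loose string with any base in the middle that matched 42.6% of all windows. It was present in 14.6% (13.3 to 16.0) of the peaks, below that share and the 23.02% at like GC. These values describe the string, which also takes in sequence other than MEF2 sites. A match is a description of letters and no measure of binding.

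Distance from the midpoint gave a comparison within the same loci. In the 200 bp at the midpoint the PU.1-type ETS motif occurred 23.5 times per 1000 peaks and 100 bp, against 6.18 in the outermost 500 bp on each side of a 4 kb stretch, a ratio of 3.80 (3.002 to 4.80). The ratio was 2.25 (1.98 to 2.56) for AP-1, 2.05 (1.73 to 2.43) for RUNX, 1.4995 (1.31 to 1.72) for MYB, 1.44 (1.27 to 1.63) for C/EBP and 1.2 (1.06 to 1.35) for ZNF217. Ratios at the level of MYB and C/EBP were also found for KLF/SP (GGGGCGG) and the CTCF core (AGNNGGCNC), so they were not particular to blood factors. The ratio was 1.53 (1.32 to 1.77) for KLF/SP and 1.53 (1.39 to 1.68) for CTCF. For the E-box CAGCTG, a motif of TCF3 and of the blood factor TAL1, it was 1.64 (1.49 to 1.80). The loose MEF2 string stood at 0.554 (0.496 to 0.617) and IRF (GAAANNGAA) at 0.844 (0.697 to 1.01). GC content also changes between centre and flank, and its part in these ratios was not tested.

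**Figure D3:**
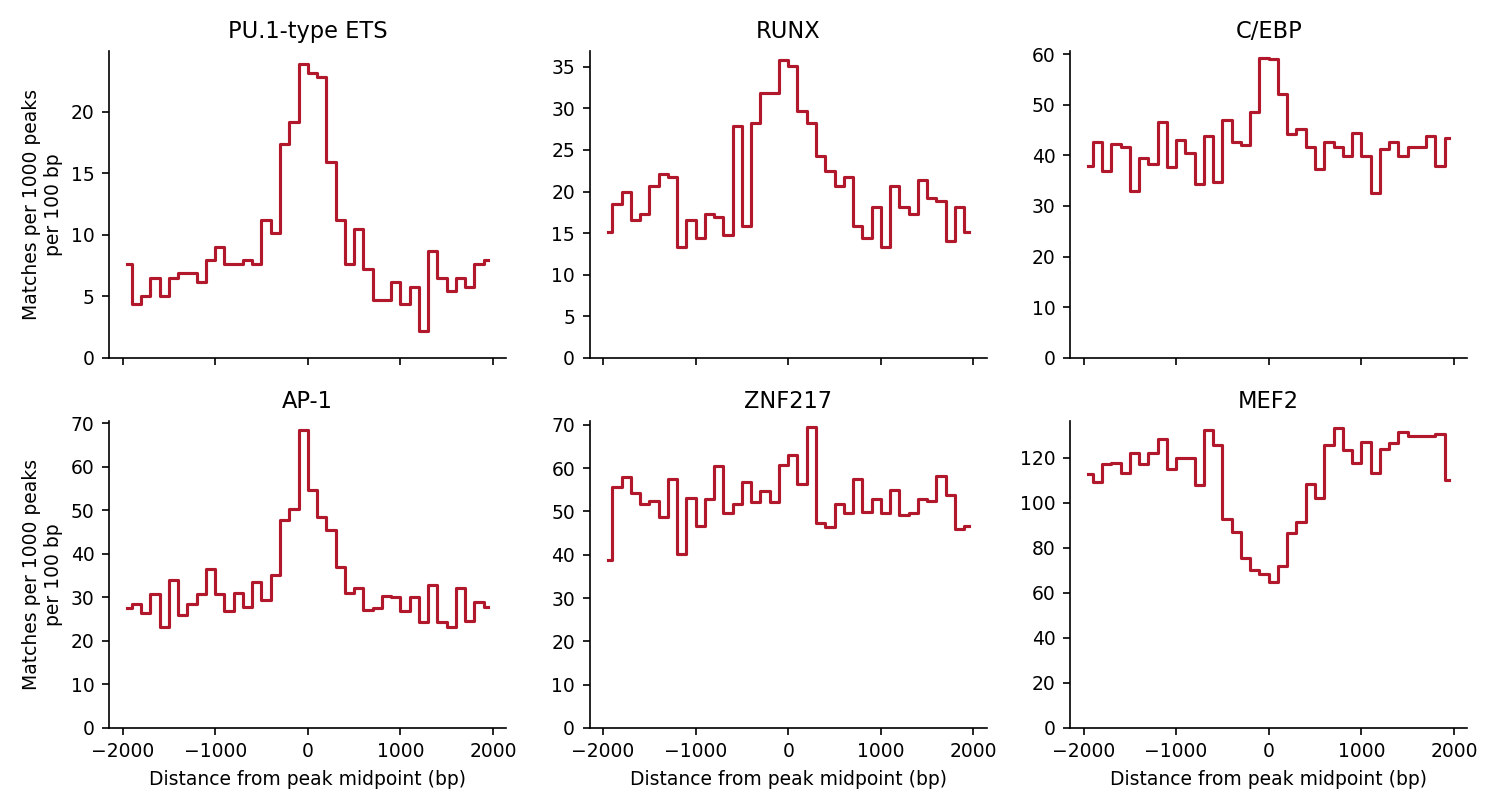
Motif matches around the midpoints of the 2765 shared intronic distal peaks, per 1000 peaks and 100 bp, in steps of 100 bp up to 2000 bp to each side, with each y axis starting at 0. PU.1-type ETS, RUNX, C/EBP and AP-1 peak at the centre, ZNF217 changes little (ratio of centre to flank 1.2) and the loose MEF2 string dips (0.554).

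Shared and unshared intronic peaks differed in motifs, while the shared intronic and intergenic peaks were alike in most. AP-1 was found in 15.1% of shared intronic distal peaks and 9.89% of MV4-11 only intronic distal peaks, a difference of 5.23 points (3.78 to 6.74). C/EBP differed by 2.63 points (1.17 to 4.16), the PU.1-type ETS motif by 1.74 points (0.745 to 2.82), KLF/SP (GGGGCGG) by 2.39 points (1.26 to 3.60) and the CTCF core (AGNNGGCNC) by 4.19 points (2.38 to 6.06). RUNX did not stand above MV4-11 only peaks, with a difference of -0.81 points (-2.03 to 0.48), and the ZNF217 motif differed by 0.45 points (-1.11 to 2.08). Against U937 only intronic distal peaks, RUNX was higher by 3.20 points (1.82 to 4.59), PU.1-type ETS by 3.34 points (2.20 to 4.49) and ZNF217 by 3.43 points (1.57 to 5.30). The loose MEF2 string was lower by 12.8 points, at 14.6% in shared peaks and 27.5% in U937 only peaks. AP-1 did not set the shared peaks apart from U937 only peaks, at 15.1% and 14.0%, with a difference of 1.12 points (-0.74 to 2.98). Against shared intergenic distal peaks, AP-1 differed by -1.35 points (-3.36 to 0.64) and PU.1-type ETS by 0.95 points (-0.38 to 2.25). KLF/SP was lower in the introns, at 8.57% against 11.1% (difference -2.52 points, -4.17 to -0.90). At the GC content of the intronic and intergenic sets, intron windows held KLF/SP at 6.43% and 8.13%. Relative to those windows KLF/SP was thus about as frequent in both sets, at 1.33 and 1.37 times. The E-box CACGTG was higher in the introns, at 8.28% against 6.63% (1.65 points, 0.21 to 3.08). Its ratios to windows at like GC were 1.44 and 1.19 in the same order. The lower limit of 0.21 points is small, and no interval was adjusted for the number of motifs compared.

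Width and GC content moved with sharing. At the GC content of each set, the PU.1-type ETS motif was 4.02 times as frequent as in intron windows for shared intronic distal peaks and 3.01 times for MV4-11 only peaks, and AP-1 was 2.24 and 1.38 times as frequent in the same order. Within the 5 width classes AP-1 was more frequent in shared than in MV4-11 only peaks each time, by 9.72 points (4.74 to 15.7) in the narrowest class and 2.79 points (0.35 to 5.21) in the widest. For PU.1-type ETS the difference was 0.10 points (-2.08 to 3.75) in the narrowest class and 2.75 points (0.91 to 4.58) in the widest, and the interval excluded 0 in the widest class only. For C/EBP and the CTCF core it excluded 0 in classes 3 and 4 only, counted from the narrowest. In the widest class C/EBP differed by 1.34 points (-1.40 to 4.05) and CTCF by 3.05 points (-0.46 to 6.53). RUNX differed by -5.16 points (-7.62 to -2.16) in class 3, and KLF/SP was not compared by width class. Among the shared peaks themselves, AP-1 was found in 18.9% (16.5 to 21.5) of the narrowest 922 and 10.1% (8.31 to 12.2) of the widest 921, in which the 300 bp window covers a smaller part of the peak. Near promoters, at 1 to 5 kb, AP-1 was found in 12.7% (10.9 to 14.9) and KLF/SP in 10.8% (9.04 to 12.8). Beyond 20 kb the shares were 16.1% (13.4 to 19.3) for AP-1 and 7.81% (5.92 to 10.2) for KLF/SP.

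**Figure D4:**
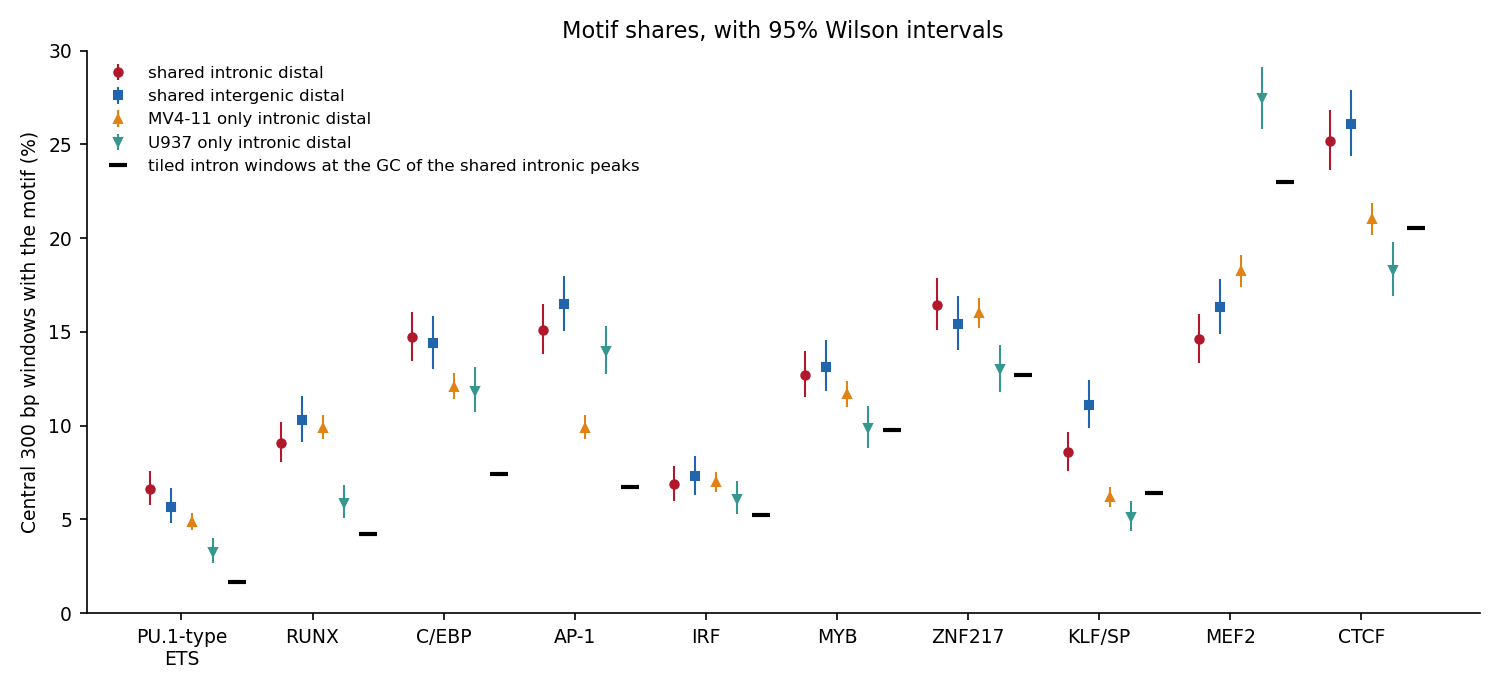
Share of central 300 bp windows that hold each of 10 motifs, in percent, for shared intronic distal, shared intergenic distal, MV4-11 only intronic distal and U937 only intronic distal peaks, with 95% Wilson intervals. Black dashes are tiled intron windows at the GC content of the shared intronic distal peaks. The PU.1-type ETS share of 6.62% in these peaks stands above the 1.65% of the windows. The share of the loose MEF2 string, 14.6%, stands below their 23.02%.

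For most of 55 pairs of motifs, peaks with and without one motif held the other at shares whose intervals overlapped. The PU.1-type ETS and RUNX motifs met in 14 peaks, and RUNX was found in 7.65% (4.61 to 12.4) of peaks with PU.1-type ETS and 9.18% (8.13 to 10.4) of those without. The ZNF217 motif was found in 29.2% (25.03 to 33.8) of peaks with C/EBP and 14.2% (12.9 to 15.7) of those without, and in 24.3% (19.4 to 29.97) of peaks with RUNX and 15.7% (14.3 to 17.1) of those without. The letters of ZNF217 and C/EBP can overlap, and did so in 37 of the 119 peaks that held both. The E-box CAGCTG was found in 34.2% (29.8 to 38.9) of peaks with AP-1 and 25.1% (23.4 to 26.9) of those without, with overlapping letters in 14 peaks. Base composition was not held fixed between these groups of peaks.

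The host genes numbered 1719, which is 9.43% of the 18227 protein-coding genes with intron sequence open to the rule. Most hosts held a single shared intronic distal peak (1206, or 70.2%), 283 held 2, and 230 held 3 or more and carried 35.9% of the peaks. Hosts had a median of 43.0 kb (39.9 to 46.5) of open intron sequence, against 23.7 kb (22.9 to 24.3) for all genes. With genes divided into 10 equal classes by that length, 2.30% of the shortest class and 14.3% of the longest were hosts. A ZNF217 peak at the promoter in both lines was present in 1158 hosts (67.4%, 65.1 to 69.5), against 47.2% of all genes and 45.1% (44.4 to 45.9) of genes without such an intronic peak. This held within length classes, where 73.8% of hosts and 40.8% of other genes in the shortest class had a promoter peak in both lines, and 53.5% of hosts and 31.9% of other genes in the longest. Chromosome 19 held 12.2 shared intronic distal peaks per Mb of open intron sequence, chromosome 17 held 5.41 and chromosome 22 held 5.34, against 0.675 on chromosome 4 and 0.911 on the X chromosome.

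CCDC200 held the most peaks, 17, and they were copies of each other in sequence. These 17 peaks spanned 70.4 kb of chromosome 17 (43231474 to 43301879), with widths of 901 to 4461 bp in MV4-11 and 366 to 2430 bp in U937. A median of 96.3% (range 75.3% to 100%) of their 31 base words recurred in another peak of the gene, against a median of 0 in each of the 14 other leading hosts. GENCODE places 13 copies of the U2 small nuclear RNA gene there, the RNA that pairs with the branch point in splicing, and each copy was overlapped by a peak. Among the 17 peaks, 12 overlapped a U2 copy, whose start sites the TSS rule does not use. Reads from near-identical copies cannot be placed with certainty, so the number of peaks here is uncertain. Among all 2765 peaks 27 had 50% or more of their 31 base words in another peak, 17 of them in CCDC200.

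ZMIZ1, a coactivator of nuclear receptors and SMADs, held 15 peaks in 236.05 kb of open intron sequence on chromosome 10. They were 400 to 2144 bp wide in MV4-11, their U937 peaks 474 to 1683 bp, and 5 of them lay within 8.69 kb of intron 7. RASA3, a GTPase-activating protein for RAS and RAP, held 11, with 7 in first introns. RXRA, the shared dimer partner of nuclear receptors, held 10, among them a 4591 bp peak that faced 4081 bp in U937. MV4-11 had 13 unpartnered peaks in RXRA and U937 had none, where over all introns MV4-11 had 8280 and U937 had 2772.

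The next hosts were GNG7, MGLL and STK10 with 9 peaks each, and AHRR, CMIP, GAS7, LMNA, MBP, PREX1 and SEPTIN9 with 8 each. GNG7 encodes a G protein gamma subunit, STK10 a kinase of lymphocytes, PREX1 an exchange factor for RAC in neutrophils, LMNA the A-type lamins and SEPTIN9 a septin that is also a KMT2A fusion partner. LMNA was the densest of them, with 8 peaks in 37.562 kb of open intron sequence and only 1 unpartnered peak in each line. Its peaks were 761 to 1677 bp wide in MV4-11 and 600 to 2137 bp in U937. When peaks within 12.5 kb were joined, 40.9% (39.1 to 42.8) of all shared intronic distal peaks had such a neighbour, and 562 fell into 149 groups of 3 or more. Neighbours were not counted for other sets of peaks, so these values have no background here. Outside CCDC200 the largest groups held 8 peaks, in 27.3 kb of TNFRSF1B, 34.3 kb of LMNA, 28.5 kb of MGLL and 56.8 kb of AHRR.

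Gene lists were described by how many members were hosts, beside the rate for all genes of the same intron lengths. That rate was not matched for promoter peaks, which hosts had more often. Promoter peaks in both lines were present in 35 of 40 chromatin regulators and 33 of 44 kinase and phosphatase genes. They were present in 2 of 20 T-cell, 1 of 13 B-cell and 1 of 20 long neuronal genes. Innate sensing and cytosolic ribosomal protein genes, nearer that rate, had 25 and 21. The part of promoter peaks in the list shares was not tested. Among the 5 factors of the circuit proposed in the study, MEF2D, RUNX2 and FOXP1 were hosts, with 1, 1 and 3 peaks, and ZNF217 and ELF1 held none. These 3 are 60% of the list (14.7 to 94.7, against 12.7% of all genes at like length). The study drew candidates from a super-enhancer model of pediatric AML samples and went on with the 5 for which it obtained CUT&Tag data, ZNF217 included. It also used knockdown and reporter assays in MV4-11 to propose the circuit. The list is thus not independent evidence. MV4-11 alone had 3 intronic distal peaks in ZNF217 and 2 in ELF1, where over all introns it had 8280 unpartnered peaks and U937 had 2772. The single RUNX2 peak was 622 bp wide in MV4-11 and 437 bp in U937 (chromosome 6, 45424071 to 45424693), and the 3 FOXP1 peaks, in a forkhead repressor gene, were 432, 1452 and 1441 bp wide in MV4-11, facing 484, 660 and 880 bp. Of the other candidates named in the study with open introns, 6 of 7 were hosts (85.7%, 42.1 to 99.6, against 11.9% at like length). They came from the same super-enhancer model, so this list is not independent evidence either. RARA and RREB1 held 6 peaks each, ETV6 and IRF1 3 each, and CIC and ZBTB7A 2 each, whereas ERG held none. The IRF1 peaks all lay outside the canonical introns, in the longer gene body that GENCODE annotates. In RREB1, a RAS-responsive zinc finger gene, 5 of the 6 peaks lay in the first intron. RREB1 also held 12 of the 8280 unpartnered peaks of MV4-11 and none of the 2772 of U937.

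Haematopoietic transcription factor genes were hosts in 15 of 41 cases (36.6%, 22.1 to 53.1), against 10.3% of all genes at like length. RUNX1 held 7 peaks, of which 2 lay in the far upstream part of the gene outside its canonical introns. They were 657 to 1264 bp wide in MV4-11 and 356 to 1103 bp in U937. MV4-11 had 18 unpartnered peaks in RUNX1 against 7 in U937, and 8280 against 2772 over all introns. ELF4, an ETS factor gene of the X chromosome, held 5 peaks, all in the first intron, and neither line had an unpartnered one. SPI1 held 4 peaks in 20.73 kb, at widths of 1850, 1955, 632 and 1984 bp in MV4-11, and U937 peaks of 591, 2316 and 3263 bp faced them, the 2316 bp peak facing 2 of them. The SPI1 peak with the C/EBP site printed above is the 1850 bp one, in the last intron. IKZF1 and RUNX3 held 2 each and BCL11A 1. MYB, named after its values were seen, held 1 peak of 1078 bp in its first intron, which faced a U937 peak of 3504 bp. MV4-11 had 2 unpartnered peaks in MYB and U937 had 1. The shared MYB peak contained the ZNF217 motif, which was found in 16.5% of all shared intronic distal peaks and 18.1% of all intron windows.

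Chromatin regulators were hosts in 14 of 40 cases (35%, 20.6 to 51.7, against 12.6% at like length). DNMT3A, the DNA methyltransferase gene mutated in AML, was among them, with 5 peaks of 469 to 1027 bp in MV4-11 and no unpartnered MV4-11 peak. DOT1L, the histone methyltransferase recruited by KMT2A fusions, and KDM2B held 2 each, and ARID1A and ARID1B 1 each. A list of nuclear receptors and coactivators, to which genes of the aryl hydrocarbon receptor pathway were added, had hosts in 8 of 20 cases (40%, 19.1 to 63.9, against 12.1%). RXRA, AHRR, RARA, NR4A1, NR4A2 and PPARD were among them. AHRR is of that pathway and no nuclear receptor, and RARA is also 1 of the candidates named in the study.

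Genes of receptors, adhesion and signalling gave similar shares. Cytokine and chemokine receptor genes were hosts in 11 of 32 cases (34.4%, 18.6 to 53.2, against 10.4%). TNFRSF1B, the second TNF receptor, held 8 peaks in 37.626 kb, IL6R, IL17RA and TNFRSF1A held 3 each, and C5AR1 and CSF1R held 2 each. Both peaks in CSF1R, the M-CSF receptor gene and a known PU.1 target, contained a PU.1-type ETS motif in their central 300 bp. They were 1067 and 413 bp wide in MV4-11, against 533 and 2543 bp in U937. Leukocyte adhesion genes were hosts in 6 of 19 cases (31.6%, 12.6 to 56.6, against 10.01%), with 6 peaks in PECAM1, 2 in ITGB2, the integrin beta 2 chain, and 1 each in CD44, ITGA5, SIRPA and TLN1. Kinase and phosphatase genes were hosts in 15 of 44 cases (34.1%, 20.5 to 49.9, against 13.0%), with 4 peaks each in INPP5D, PRKCD, PTPRE and PTPRJ and 3 each in LYN and PIK3CD.

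In each of the other lists the interval included the rate set by intron length, but the lists are short and the intervals wide. Innate sensing and NF-kB genes were hosts in 5 of 31 cases (16.1%, 5.45 to 33.7, against 9.76%), namely IRAK2, TNIP1, BCL3, NOD1 and NOD2. Granule and lysosome genes were hosts in 2 of 17 cases (11.8%, 1.46 to 36.4, against 7.89%), CTSB and SRGN, and cytosolic ribosomal protein genes in 2 of 22 (9.09%, 1.12 to 29.2, against 4.65%), RPL15 and RPS9. T-cell genes were hosts in 2 of 20 cases (10%, 1.23 to 31.7, against 10.8%), CD4 and CD247, and the B-cell list in 1 of 13 (7.69%, 0.195 to 36.0, against 10.1%), PAX5. None of 20 long neuronal genes was a host, with an upper limit of 16.8%, although their median open intron sequence was 1230.4 kb and 14.3% of all genes at like length were hosts.

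**Figure D5:**
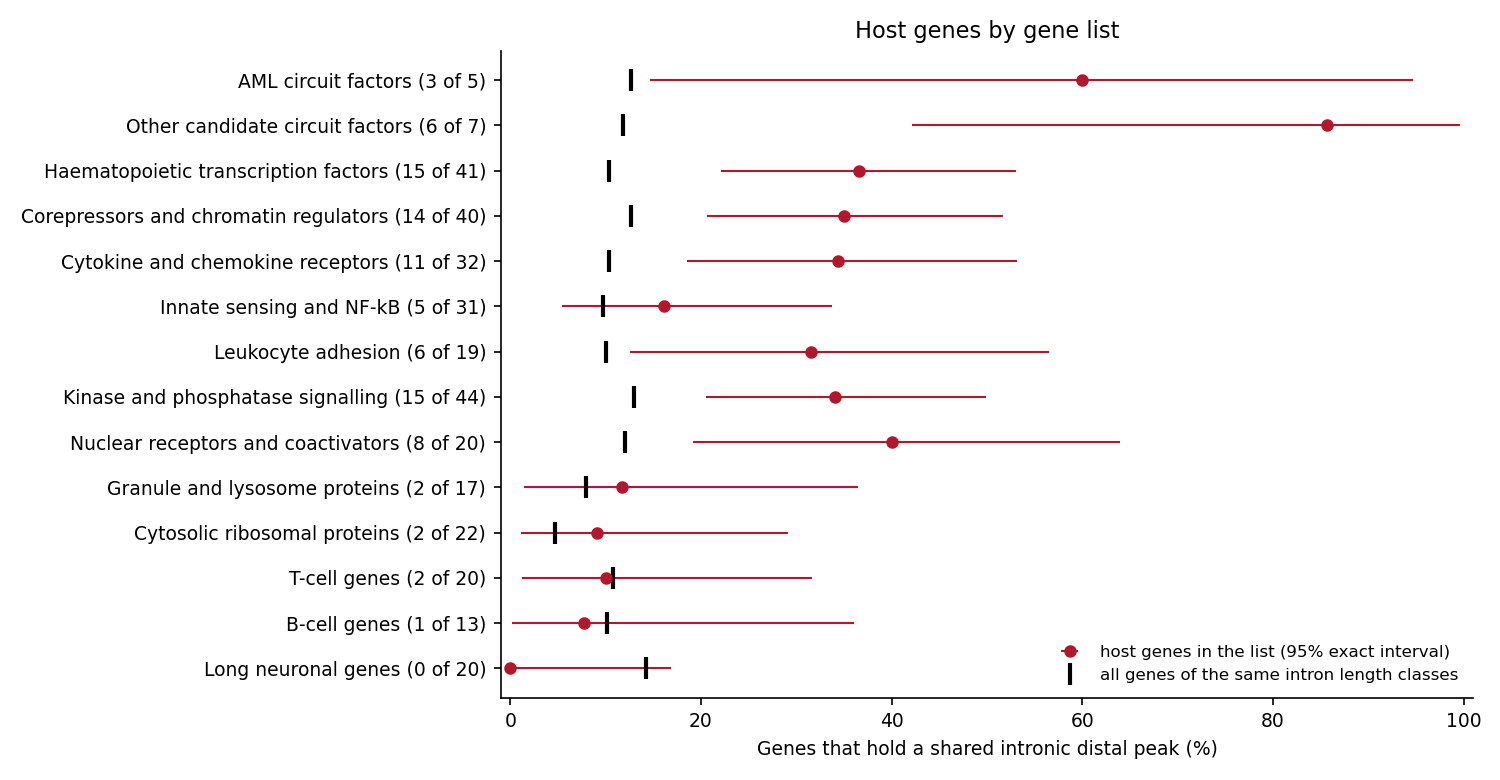
Share of genes in each of 14 lists that hold a shared intronic distal peak, in percent, with 95% exact intervals. Black ticks give the share of hosts among all genes of the same intron length classes, not matched for promoter peaks. Haematopoietic transcription factor genes stand at 36.6% with a tick at 10.3%, and long neuronal genes at 0 with a tick at 14.3%.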

How the data were processed

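ZNF217 CUT&Tag (Hyperactive Universal kit, Vazyme) was made in 1 library per line. Per the labels and the methods of the study, the authors aligned reads to hg38 with Bowtie2 2.4.4 and called peaks per library with MACS3 3.0 from paired fragments at q 0.01. Use of IgG as control, duplicate removal and blacklisting were not given in the sources used here. The deposited lists give other values than a signal, namely a chromosome, start and end in bp for each peak, with no score. The start was read as counted from 0, an uncertainty of 1 bp. Depth is unknown, and the number of peaks or genes sets the precision.

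The reference was hg38 with GENCODE 44. TSSs were those of transcripts typed protein-coding or lncRNA, exons those of all protein-coding gene transcripts, and introns those of the canonical transcript. In overlapping genes the host was the gene whose canonical intron held the midpoint, with the nearest canonical TSS (186 peaks lay in 2 or more genes). Motifs (19 consensus strings) were matched exactly on both strands. Shares have Wilson intervals (gene lists exact), differences Newcombe intervals, medians order-statistic intervals and density ratios exact conditional intervals, all at 95%. No p-value was calculated. Scripts were tested on simulated data.

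Named genes were the 15 hosts with most peaks, hosts of the 10 widest and 5 most distant peaks, all hosts in the 2 circuit lists, up to 6 hosts of each other list by number of peaks, and the 3 peaks on each side of the 1 kb limit. 1 of these hosts and 1 of 15 gene lists are not reported here. The shared peaks and the lists were chosen with earlier results of these data known. Alternatives were other overlaps, TSS limits, a minimum width, exon-free peaks, counting on U937 and other motif windows. Calculations used SciPy 1.17.1, pandas 2.3.3, NumPy 2.4.6 and samtools 1.23.1 under Python 3.11.15, and figures Matplotlib 3.10.9.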

Additional observations from a re-analysis of the deposited data

How the results depend on the processing

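Of 70 values computed under 10 alternatives, 47 stayed within 1.5 times the count or inside the interval of the value given, and 23 did not. Reciprocal overlap of 50% left 1641 peaks, a median TSS distance of 7819 bp and a PU.1-type ETS share of 7.80%. A limit of 3 kb gave a first intron share of 29.3% and a median distance of 11007 bp. A limit of 5 kb left 1706 peaks in 1087 hosts, with 27.7% in first introns and a median distance of 13997.5 bp, which the limit itself raises. The median width was 740 bp with U937 peaks within 500 bp counted, 877 bp for peaks of at least 400 bp, 720 bp for peaks wholly outside exons and 695 bp when counted on U937 peaks. Peaks wholly outside exons had a first intron share of 38.3% and a median distance of 8097 bp. On U937 peaks the ZNF217 motif share was 14.1%. With TSSs of every transcript, an alternative chosen after seeing the data, 267 peaks were lost and the first intron share was 36.2%. In the central 200 bp the shares were 4.63% for PU.1-type ETS, 6.62% for RUNX and 11.1% for ZNF217, and over the whole peak 15.4%, 22.97% and 38.9%, as the searched length sets.

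No paired analysis was possible because each line had 1 library. Differences between MV4-11 and U937 cannot be told apart from differences between libraries. Depth is unknown, so a peak called in a single line may lie below the threshold in the other. Read counts and the IgG libraries were not analysed here.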

Other observations

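Small RNA genes lay inside some shared intronic distal peaks. Annotated microRNA genes were overlapped by 11 of the 2765 peaks (0.398%, 0.222 to 0.711), against 12 of 8280 MV4-11 only intronic distal peaks (0.145%, 0.0829 to 0.253) and 2 of 2772 U937 only intronic distal peaks (0.0722%, 0.0198 to 0.263). The shared peaks are wider, and the part of width in this difference was not tested. One of them, a 1085 bp peak in intron 13 of the replication gene MCM7 (chromosome 7, 100093211 to 100094296), covered the microRNA genes MIR25, MIR93 and MIR106B. Others covered MIR199B in DNM1 and MIR6732 in ZC3H12A, which encodes the RNase Regnase-1. Small nuclear RNA genes were overlapped by 14 shared intronic distal peaks, of which 12 lay in CCDC200, and by 2 of the MV4-11 only and 0 of the U937 only peaks. Shared intergenic distal peaks gave 11 of 2398 with a microRNA gene and 13 with a small nuclear RNA gene.

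Internal repetition was rare. In 22 shared intronic distal peaks (0.796%, 0.526 to 1.202) at least 50% of the 12 base words recurred within the peak, against 2.29% (1.99 to 2.64) of MV4-11 only and 0.433% (0.248 to 0.755) of U937 only intronic distal peaks. They included peaks in PTPRN2, DOCK2 and IL17RA, at 80.7%, 81.7% and 61.6%. The genes in these 2 paragraphs were chosen after their values were seen. Midpoints within 5 Mb of a chromosome end made up 21.3% (19.8 to 22.9) of the shared intronic distal peaks, against 21.7% (20.8 to 22.6) of MV4-11 only and 16.2% (14.9 to 17.6) of U937 only intronic distal peaks.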
